A study of Arabidopsis thaliana with 12 samples.

Results

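The levels of 10 nuclear genes of cell division were followed in Arabidopsis seedlings that lack a plastid sigma factor. They are the B-type cyclins *CYCB1;1* (AT4G37490), *CYCB1;2* (AT5G06150) and *CYCB2;1* (AT2G17620), the A-type cyclin *CYCA1;1* (AT1G44110), and the B-type cyclin-dependent kinases *CDKB1;1* (AT3G54180), *CDKB2;1* (AT1G76540) and *CDKB2;2* (AT1G20930). The syntaxin gene *KNOLLE* (AT1G08560), the D-type cyclin *CYCD3;1* (AT4G34160) and the transcription factor gene *E2FA* (AT2G36010) complete them. The genes were taken by their identifiers, without a measured value in the rule, and they are 10 of the 33078 loci in the table of all conditions, which lie on the 5 nuclear chromosomes. Of the 10, 5 were found by identifier and position, among them *KNOLLE*, which is listed as SYP111, and *E2FA*, which is listed as E2F3. The other 5 are listed under a family name that stops before the semicolon, and these were placed by their TAIR10.1 position.

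RNA came from whole seedlings of the Col-0 wild type (WT) and of *sig2-2*, 1 line with a T-DNA insertion in *SIG2*, a nuclear gene whose product, a sigma factor, guides the plastid RNA polymerase to promoters. Seeds of both genotypes were kept dark and cold (4°C, 4 days) on medium with 1× MS salts and 1% sucrose, and seedlings then grew at 22°C in constant red (Rc) light of 50 μmol per square metre and second for 1 day or 7 days. This gave 4 groups of 3 biological replicates, 12 samples in all. The deposited values are in FPKM (a count of sequenced fragments divided by transcript length and library size), with the 3 replicates of a group combined into 1 value. No replicate error stands beside them, no test was made, and every difference below is a description of these combined values. Where 2 values of a gene are given for an age, the first is WT and the second is *sig2-2*.

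Cyclins activate cyclin-dependent kinases, and the A- and B-type cyclins together with the plant-specific CDKB kinases carry cells through G2 into mitosis. D-type cyclins act at entry into the cycle, where they lead to phosphorylation of the retinoblastoma protein and so release E2F factors that switch on genes of DNA synthesis. Many genes of G2 and mitosis carry MSA elements (mitosis-specific activators, with the core AACGG) in their promoters, which are bound by MYB3R factors, and in seedlings the transcripts of these genes mark dividing cells of the meristems and of young leaves.

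The promoters of the 5 genes that were past 2-fold lower in *sig2-2* at 7 days are shown because 4 of them hold the MSA core more than once. Each sequence is the 250 bases before the annotated gene start in the RefSeq annotation of TAIR10.1, on the strand of the gene, and AACGG or its reverse complement CCGTT stands in capitals. *CYCB1;1* (chr4:17624309-17624558, minus strand) has 3 such words, *CYCB1;2* (chr5:1861704-1861953, minus strand) has 4, and *CYCB2;1* (chr2:7663805-7664054, plus strand) has 3. *CYCA1;1* (chr1:16777353-16777602, minus strand) has 2, and *KNOLLE* (chr1:2711001-2711250, minus strand) has 1.
CYCB1;1: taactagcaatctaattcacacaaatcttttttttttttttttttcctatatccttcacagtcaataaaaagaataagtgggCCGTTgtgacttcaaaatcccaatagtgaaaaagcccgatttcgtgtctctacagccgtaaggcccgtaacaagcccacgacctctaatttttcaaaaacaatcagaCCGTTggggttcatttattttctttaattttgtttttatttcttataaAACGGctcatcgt
CYCB1;2: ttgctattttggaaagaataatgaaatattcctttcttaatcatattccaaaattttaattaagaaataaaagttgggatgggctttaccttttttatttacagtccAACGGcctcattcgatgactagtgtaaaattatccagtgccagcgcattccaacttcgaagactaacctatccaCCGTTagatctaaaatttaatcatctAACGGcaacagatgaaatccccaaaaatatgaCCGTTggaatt
CYCB2;1: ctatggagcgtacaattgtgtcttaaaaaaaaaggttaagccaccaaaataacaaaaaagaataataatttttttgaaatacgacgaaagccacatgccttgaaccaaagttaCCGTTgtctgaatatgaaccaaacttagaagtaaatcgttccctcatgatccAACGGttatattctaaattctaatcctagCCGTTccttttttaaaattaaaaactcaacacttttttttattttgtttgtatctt
CYCA1;1: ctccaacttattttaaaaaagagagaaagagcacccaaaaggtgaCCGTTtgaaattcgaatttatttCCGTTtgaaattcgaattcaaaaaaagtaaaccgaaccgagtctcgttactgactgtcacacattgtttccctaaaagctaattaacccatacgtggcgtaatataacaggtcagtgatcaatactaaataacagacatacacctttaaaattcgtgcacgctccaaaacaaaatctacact
KNOLLE: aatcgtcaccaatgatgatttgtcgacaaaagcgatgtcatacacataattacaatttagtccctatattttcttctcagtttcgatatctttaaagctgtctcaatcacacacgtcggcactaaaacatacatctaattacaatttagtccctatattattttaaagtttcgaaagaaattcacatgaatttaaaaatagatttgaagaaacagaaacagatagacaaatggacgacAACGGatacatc
In the cyclin promoters the words lie between 11 and 205 bases before the gene start, and the word of *KNOLLE* lies 12 bases before it. No other annotated gene reaches into these 5 windows.

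Over both strands, the core was in the windows of 8 of the 10 genes and in 20.6% of the 27443 gene windows of the same length. At least 2 copies stood in 4 of the 10 and in 3.62% of all windows, and at least 3 copies in 3 of the 10 and in 0.736%. The longer word CNAACGG, which contains the core, was found in the 4 cyclin promoters printed above and in none of the other 6, beside 4.50% of all windows. Among genes described further on, it was in 6 of 16 windows of mitosis and cytokinesis, 3 of 16 of other A- and B-type cyclins and 2 of 4 of histone H3.1. The core was in 10, 6 and 3 of these windows. It was in 2 of 17 windows of DNA replication and in none of the 5 of activators of the anaphase-promoting complex. Of the remaining groups, it was in 3 of 5 windows of MYB3R factors and in 6 of 13 of CDK inhibitors. It was in 2 of 8 of E2F, DP and RBR genes, 1 of 5 of CDK, CKS and *WEE1* genes and 0 of 9 of D-type cyclins. The longer word was in 1 of 17 windows of DNA replication, in 1 of 8 of E2F, DP and RBR genes and in no window of the groups not yet named for it. The windows of *CDKB1;1* and *CDKB2;1* held no core, and those of *CDKB2;2*, *CYCD3;1* and *E2FA* held 1 copy each. The E2F words TTTCCCGC, TTTCGCGC, TTTGCCGC and TTTGGCGC were in none of the 10 windows, in 1.41% of all windows and in 7 of the 17 windows of the DNA replication genes described further on. A word in a window is a description of its letters and not a site that was shown to be bound.

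*SIG2* itself, listed as SIGB, stood at 66.5 against 1.31 FPKM in 1-day-old seedlings and at 87.7 against 1.49 FPKM in 7-day-old seedlings, so the libraries carry the genotype of their labels. The depth behind each group is unknown from FPKM, so no counting error can be given. The locus AT2G01021 took between 5.45% and 32.6% of the summed FPKM of a group, with the higher shares at 1 day. The median change of the 16872 loci listed at 1 FPKM or more in every group was −0.01 (log2) between genotypes at 1 day and −4.4e-05 at 7 days. Between ages it was −0.17 in WT and −0.13 in *sig2-2*, and changes with age are best read against these shifts. In whole seedlings, fewer dividing cells and less RNA per dividing cell cannot be told apart.

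All 10 genes were expressed in every group. *KNOLLE*, a syntaxin that acts in vesicle fusion at the growing cell plate, had the highest level of the 10 in each group, between 27.1 FPKM in WT at 1 day and 83.3 FPKM in WT at 7 days. *CYCB2;1* had the lowest level in each group, between 0.853 FPKM in *sig2-2* at 7 days and 2.80 FPKM in WT at 7 days. The remaining 8 lay between 4.55 and 39.8 FPKM. FPKM is scaled to transcript length, so these levels may be set beside each other.

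**Figure D1:**
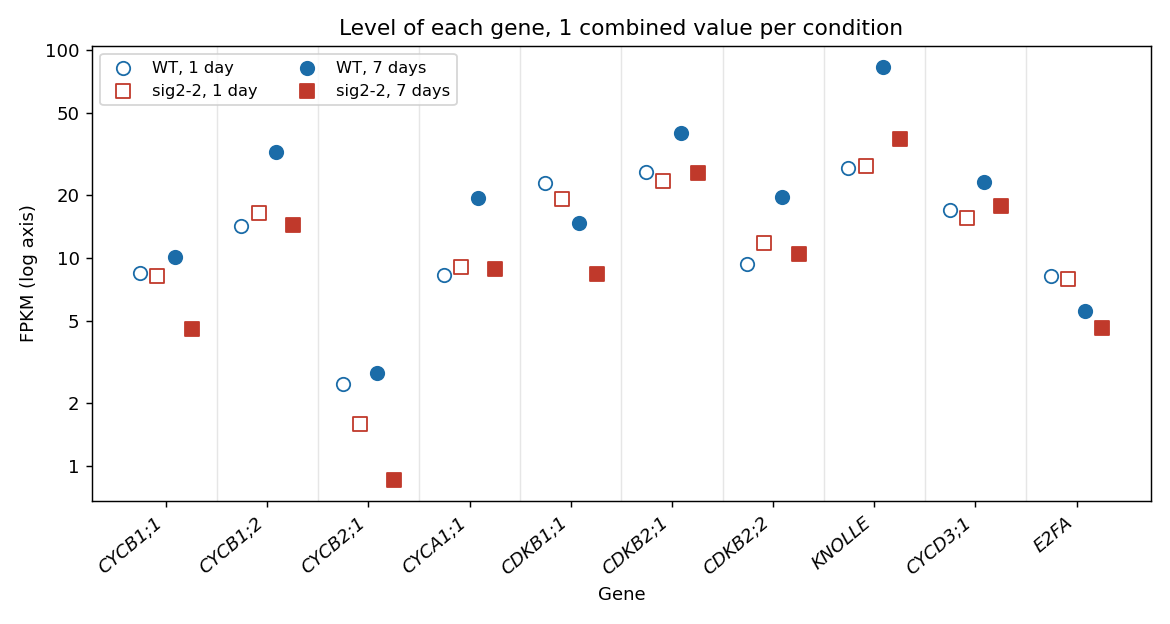
Level of each of the 10 genes (FPKM, log axis) in WT (circles) and *sig2-2* (squares) at 1 day (open) and 7 days (filled), with 1 combined value per group and no error bar. At 1 day the 2 genotypes lie close together, and at 7 days the filled square lies below the filled circle for every gene, from 37.5 against 83.3 FPKM for *KNOLLE* to 4.63 against 5.57 FPKM for *E2FA*.

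After 1 day in Rc the 10 genes stood near their WT levels in *sig2-2*, with 4 higher and 6 lower and none past 2-fold in either direction. Of the 19775 loci with a mean of 1 FPKM or more, 47.8% were higher and 50.6% lower by any amount, and over all 33078 loci 0.653% were lower and 1.66% were higher by 2-fold or more. Changes between genotypes are on a log2 scale, (*sig2-2* + 1)/(WT + 1), and the median of the 10 was −0.04, beside 0.00 over all loci. The change furthest from 0 on the higher side was that of *CDKB2;2*, with 9.32 against 11.8 FPKM (0.31). On the lower side it was that of *CYCB2;1*, the gene with the lowest level, with 2.48 against 1.58 FPKM (−0.43). *KNOLLE*, with the highest level, was read at 27.1 and 27.7 FPKM, a change of 0.03.

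After 7 days in Rc all 10 genes were lower in *sig2-2* than in WT, and 5 of the 10 were lower by 2-fold or more, beside 2.35% of all loci (3.51% of those with a mean of 1 FPKM or more). A value lower by any amount was found for 49.6% of the loci with a mean of 1 FPKM or more. The median of the 10 was −0.93, between −1.13 and −0.22, while the median over all loci was 0.00. The 5 genes past 2-fold were the 4 cyclins of G2 and mitosis and *KNOLLE*, the 3 kinases came next, and the genes of cycle entry stood nearest to WT.

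*CYCB1;1*, a cyclin present from late G2 to metaphase and used as a reporter of cells at G2 and mitosis, had 8.52 and 8.24 FPKM in 1-day-old and 10.15 and 4.55 FPKM in 7-day-old seedlings. Its change was −0.04 at the younger age and −1.01 at the older, which is just past 2-fold. *CYCB1;2*, a close relative of it, had 14.3 and 16.4 FPKM in 1-day-old and 32.4 and 14.5 FPKM in 7-day-old seedlings. It was thus slightly higher in the mutant at first (0.19) and lower later (−1.11). Of the words of 55 bases in its exons, 90.7% were found once in the genome, and the share was 100% for each of the other 9 genes.

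*CYCB2;1* belongs to the second subgroup of B-type cyclins and was read at 2.48 and 1.58 FPKM in 1-day-old and 2.80 and 0.853 FPKM in 7-day-old seedlings. It was lower in the mutant at both ages, with changes of −0.43 and −1.04. Because the pseudocount of 1 is large beside these levels, the log2 values understate its difference, which was 3.28-fold at 7 days from the FPKM values alone, the largest of the 10 on that scale (2.22-fold for *KNOLLE*). *CYCA1;1*, an A-type cyclin of G2 and mitosis, had 8.31 and 9.11 FPKM in 1-day-old and 19.5 and 8.82 FPKM in 7-day-old seedlings, a change of 0.12 and then of −1.06. For this cyclin, as for the second B1 cyclin, the mutant's value at 7 days was close to both values at 1 day, and the WT value at 7 days stood apart from the other 3.

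The CDKB kinases, a plant family whose transcripts peak between S phase and mitosis, were lower by less than 2-fold at 7 days. *CDKB1;1* was read at 23.1 and 19.3 FPKM in 1-day-old and 14.7 and 8.35 FPKM in 7-day-old seedlings, with changes of −0.25 and −0.75. It was the one kinase of the 3 with lower values at 7 days than at 1 day in both genotypes. *CDKB2;1* was at 25.8 and 23.5 FPKM at first and at 39.8 and 25.7 FPKM later, with changes of −0.13 and −0.61. This locus is merged with its neighbour AT1G76530 in the table, so its value may include reads of that gene. *CDKB2;2* had 9.32 and 11.8 FPKM in 1-day-old and 19.6 and 10.4 FPKM in 7-day-old seedlings, and went from 0.31 to −0.85. The coding sequences of the CDKB2 pair are 86.6% identical, but every word of 55 bases, which is the length of the reads, was found once in the genome for either gene.

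*KNOLLE*, with the lowest log2 change of the 10 at 7 days on the scale with a pseudocount of 1, had 27.1 and 27.7 FPKM in 1-day-old and 83.3 and 37.5 FPKM in 7-day-old seedlings, a change of 0.03 and then of −1.13. Of the loci with a mean of 1 FPKM or more, 2.79% had a lower change at 7 days than it did. For the 4 mitotic cyclins this share was between 2.92% and 3.48%, and for the 3 kinases between 4.95% and 8.73%.

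The genes of cycle entry differed least. *CYCD3;1*, a cyclin that promotes entry into the cycle and responds to cytokinin and sucrose, was read at 17.0 and 15.5 FPKM in 1-day-old and 23.1 and 17.8 FPKM in 7-day-old seedlings, with changes of −0.12 and −0.36. *E2FA*, an activator of genes of S phase, was at 8.17 and 7.95 FPKM at first and at 5.57 and 4.63 FPKM later, with changes of −0.03 and −0.22. A lower change at 7 days than theirs was found for 18.2% and 27.6% of the loci with a mean of 1 FPKM or more, so neither stands far from the bulk of genes. The table joins the latter locus to its neighbour HVA22J, and reads of both may enter its value.

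For each of the 10 genes the change at 7 days lay below that at 1 day, by 2-fold or more for 4 of them with the pseudocount of 1, beside 4.57% of all loci. Without a pseudocount others passed 2-fold too, such as *CYCB1;1*, with −0.05 at 1 day and −1.16 at 7 days. The share of all loci was not counted on that scale. Of the loci with a mean of 1 FPKM or more, 49.7% had a lower change at 7 days by any amount. The median of these differences over the 10 genes was −0.78, and they ran from −1.30 for *CYCB1;2* to −0.19 for *E2FA*.

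**Figure D2:**
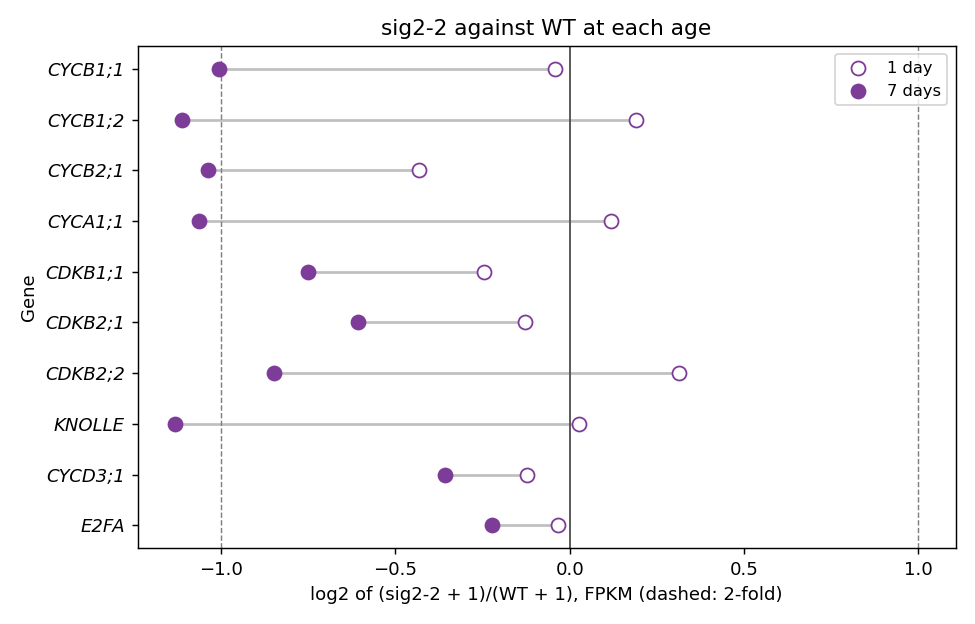
Change of each gene in *sig2-2* against WT (log2 of (FPKM + 1) in *sig2-2* over that in WT) at 1 day (open) and 7 days (filled), with dashed lines at 2-fold. Every filled point lies left of its open point, and 5 filled points lie past the dashed line on the lower side, between −1.13 for *KNOLLE* and −1.01 for *CYCB1;1* with the pseudocount of 1.

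The same values can be read along age within each genotype. In WT, 8 of the 10 genes were higher at 7 days than at 1 day. With the pseudocount of 1, 3 of them were higher by 2-fold or more, beside 12% of all loci. Of the loci with a mean of 1 FPKM or more, 44.9% were higher and 54.7% lower by any amount. The median of the 10 was 0.51. In *sig2-2*, 3 were higher and 7 were lower, the median was −0.17, and 1 gene was past 2-fold, on the lower side, where 9.58% of all loci lay. The shares by any amount were here 46.8% higher and 52.9% lower. The comparisons of age and of genotype are made from the same 4 values, so they are 2 views of one pattern and do not support each other.

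In WT the change with age was 1.58 for *KNOLLE*, 1.14 for *CYCA1;1* and 1.13 for *CYCB1;2*, the 3 past 2-fold with the pseudocount of 1. For *CDKB2;2* it was 1.00, just under 2-fold, but 2.10-fold from FPKM alone. The same 4 genes had changes between −0.17 and 0.42 in *sig2-2*. For the syntaxin this was 0.42, so its level was higher at 7 days than at 1 day in both genotypes, by 3.07-fold in WT and 1.35-fold in the mutant. The A-type cyclin was at nearly 1 level in the mutant at both ages (9.11 and 8.82 FPKM). For the other B-type cyclins the changes with age in WT were small, 0.23 and 0.13, and those in the mutant were −0.74 and −0.48.

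A different course was seen for *CDKB1;1* and *E2FA*, which were lower at 7 days in both genotypes. For the kinase the change was −0.61 in WT and −1.12 in *sig2-2*, the 1 gene of the 10 past 2-fold lower with age. For the E2F factor it was −0.48 and −0.67. *CYCD3;1* and *CDKB2;1* were higher at 7 days in both, by 0.43 and 0.60 in WT and by 0.19 and 0.12 in the mutant. These last 2 values are about the size of the median shift with age in the mutant of the loci at 1 FPKM or more in every group, −0.13, and of opposite sign.

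**Figure D3:**
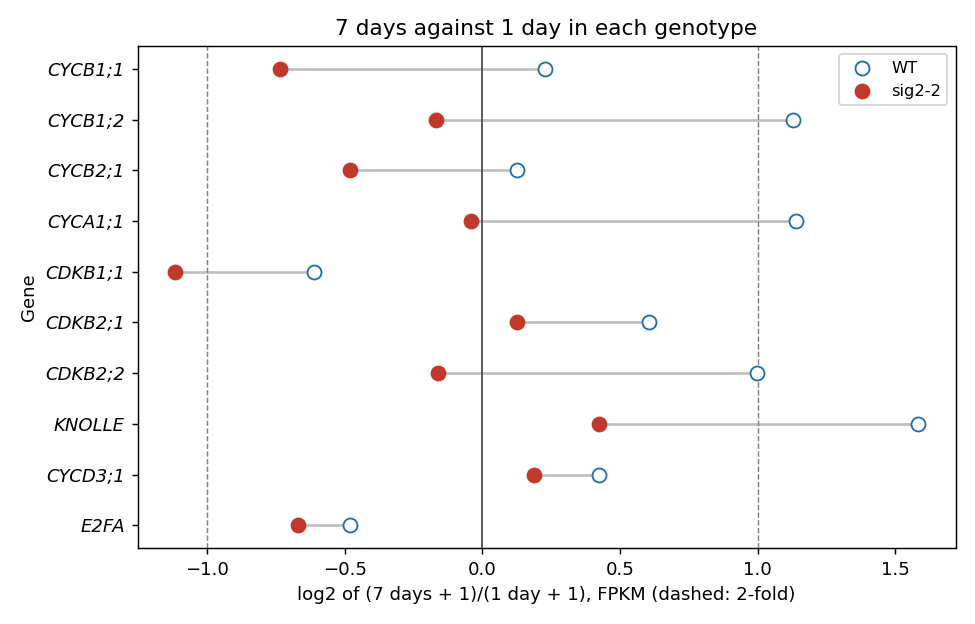
Change of each gene at 7 days against 1 day (log2 of (FPKM + 1) at 7 days over that at 1 day) in WT (open) and *sig2-2* (filled), with dashed lines at 2-fold. The *sig2-2* point lies left of the WT point for every gene, and the widest gap is that of *CYCB1;2*, from 1.13 in WT to −0.17.

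The wider cell cycle was described with 99 other genes in 10 groups, of which 98 were placed and 95 had a mean of 1 FPKM or more. At 1 day 34 of these 95 were higher and 61 lower in *sig2-2*, 1 was past 2-fold lower, and the median was −0.09. At 7 days 14 were higher and 81 were lower, 12 were past 2-fold lower and none past 2-fold higher, and the median was −0.56. The background is the share of loci with a mean of 1 FPKM or more given above, 3.51% past 2-fold lower, with 4.16% past 2-fold higher. These counts, and those of the groups below, use the pseudocount of 1. From FPKM alone more of the 95 were past 2-fold lower at 7 days, such as *DEL3* (2.25-fold) and *MYB3R4* (2.18-fold). So were more of all loci (7.67% of finite ratios, against 2.35%), but these shares are without the filter on the mean that the 95 passed.

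Among 16 genes of mitosis and cytokinesis, 15 were lower at 7 days and 7 of them by 2-fold or more with the pseudocount of 1, with a median of −0.99. From FPKM alone others were past 2-fold lower too, such as *EDE1* (2.51-fold) and *PAKRP1L* (2.25-fold). *HINKEL*, a kinesin of the phragmoplast, was read at 7.08 and 8.20 FPKM in 1-day-old and 18.7 and 6.90 FPKM in 7-day-old seedlings (−1.32). *TPX2*, a spindle assembly factor, was read at 4.51 and 5.95 FPKM and then at 15.5 and 5.91 FPKM (−1.26). *KEULE*, the SM protein that binds the syntaxin *KNOLLE*, was the exception, at 19.6 and 22.1 FPKM and then at 24.1 and 28.3 FPKM, or 0.22 higher in the mutant. The partners in membrane fusion at the cell plate thus had unlike values, with the syntaxin at −1.13. At 1 day 12 of the 16 were higher in *sig2-2*, with a median of 0.12.

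The other A- and B-type cyclins had a median of −0.67 at 7 days, with 14 of 15 lower. *CYCB2;2*, of the same subgroup as *CYCB2;1*, was at 4.12 and 3.54 FPKM in 1-day-old and 8.69 and 2.66 FPKM in 7-day-old seedlings, a change of −1.40. It was the 1 gene of this group past 2-fold with the pseudocount of 1. From FPKM alone others were past 2-fold lower too, such as *CYCB3;1* (2.39-fold, against 3.26-fold for *CYCB2;2*). *CYCA3;2*, of a subfamily tied to S phase, was 0.17 higher. The activators of the anaphase-promoting complex, the ubiquitin ligase that marks mitotic cyclins for breakdown, had a median of −0.74, with 4 of 5 lower. *CDC20.1* and *CDC20.2*, which act in mitosis, were lower, at −1.02 and −1.13, and *CCS52A1*, which acts in endoreduplication, was 0.18 higher.

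The D-type cyclins, the E2F, DP and RBR genes and the MYB3R factors were near WT as groups, with medians of −0.10, −0.15 and −0.07 at 7 days. Single genes within them stood apart. *CYCD4;1*, a cyclin of cycle entry with a part in stomatal divisions, was read at 8.54 and 8.45 FPKM in 1-day-old and 4.22 and 1.38 FPKM in 7-day-old seedlings (−1.13). *MYB3R4*, an activator of genes with MSA elements, was at 3.50 and 3.65 FPKM and then at 7.12 and 3.26 FPKM (−0.93), while *MYB3R3*, a repressor, was 0.14 higher. *DEL3*, an atypical E2F, was lower, at −0.93.

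Of the kinases and their partners, *CDKA;1*, the main cell cycle kinase and one that cells keep outside division too, was read at 40.8 and 43.8 FPKM in 1-day-old and 32.6 and 42.8 FPKM in 7-day-old seedlings, 0.39 higher in the mutant. *CDKB1;2* was lower, at −0.74, close to the value of its sister kinase. The CDK inhibitors went both ways, with 8 of 13 lower. *KRP1* was at 20.22 and 7.34 FPKM after 7 days (−1.35), and *SMR7*, which is induced by DNA damage and reactive oxygen, was at 3.09 and 6.25 FPKM (0.82). *SMR5*, of the same kind, was the 1 listed gene past 2-fold at 1 day, at 9.80 against 1.39 FPKM (−2.18), and it was at 4.45 and 5.80 FPKM after 7 days. Its locus is short (chr1:2304766-2305031), and the error of a value near 1 FPKM cannot be given.

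All 17 genes of DNA replication were lower at 7 days, none by 2-fold with the pseudocount of 1, with a median of −0.49 between −0.90 and −0.11. From FPKM alone *CDT1B* was lower by 2.08-fold. *MCM3*, a subunit of the replicative helicase, was at 39.6 and 33.4 FPKM in 1-day-old and 20.7 and 11.6 FPKM in 7-day-old seedlings. Their course with age in WT was unlike that of the mitotic genes. Of the 17, 16 were lower at 7 days than at 1 day in WT, with a median of −0.89, while 15 of the 16 genes of mitosis and cytokinesis were higher, with a median of 0.59. In *sig2-2* the medians were −1.25 and −0.27. The 4 histone H3.1 genes that were placed, made in S phase, had a median of −0.83 in the mutant at 7 days, but they are near-identical copies, and how the authors' counting split their reads is uncertain.

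**Figure D4:**
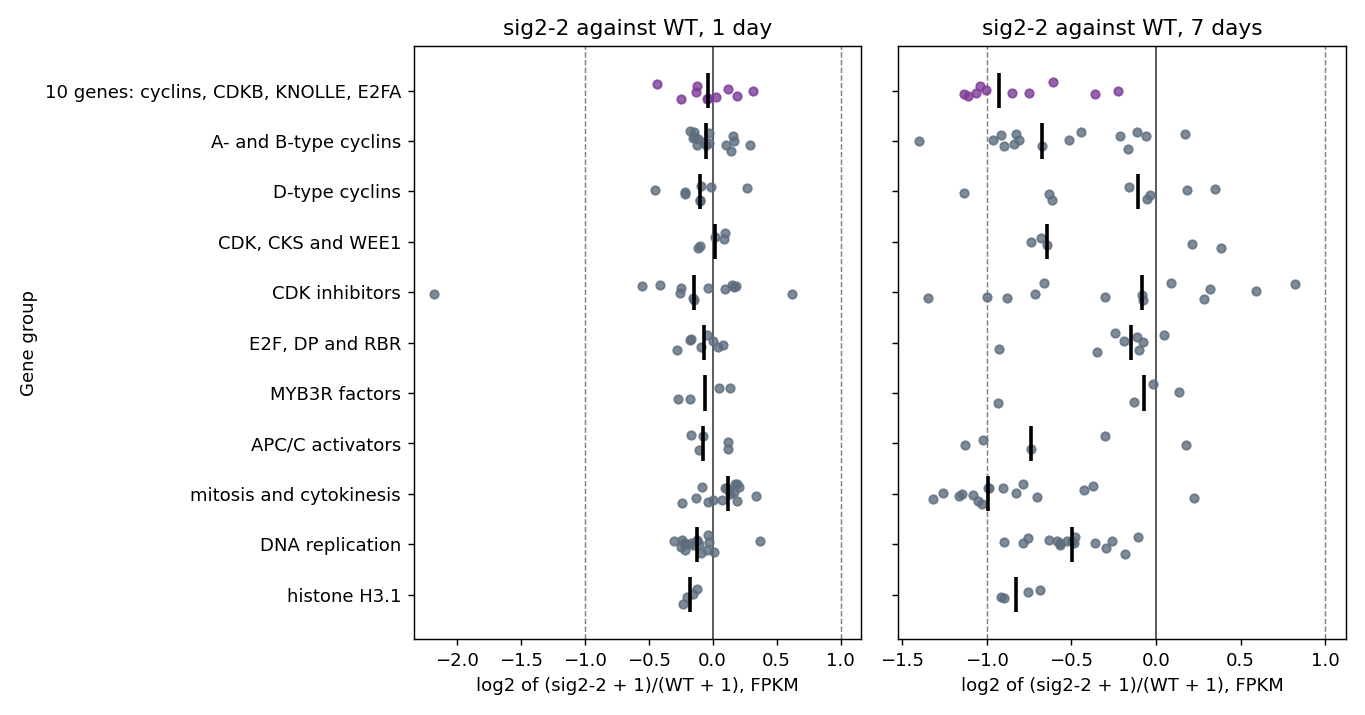
Change in *sig2-2* against WT (log2 of (FPKM + 1)) at 1 day (left) and 7 days (right) for the 10 genes and for the other cell cycle genes by group, 1 point per gene, with the median as a bar and 2-fold as dashed lines. At 1 day the medians lie between −0.18 and 0.12, and at 7 days those of the 10 genes (−0.93), mitosis and cytokinesis (−0.99) and histone H3.1 (−0.83) lie furthest to the left.

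Markers of the tissues that hold dividing cells were read beside these values. The 3 shoot meristem markers summed to 3.92 and 5.51 FPKM after 7 days. Of them, *STM* was at 3.60 and 5.20 FPKM, *CLV3* was at 0.31 FPKM in both, and *WUS* was listed at 0 in both genotypes. The 5 root meristem markers were all lower in the mutant at 7 days, and they summed to 35.4 and 31.9 FPKM, with changes from −0.85 for *WOX5* to −0.03 for *SHR*. The 6 stomatal lineage markers summed to 67.9 and 45.7 FPKM at 7 days, after 81.9 and 81.4 FPKM at 1 day.

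Of the stomatal markers 5 of 6 were lower at 7 days, from −1.30 for *EPF2*, a peptide of early lineage cells, to −0.49 for *MUTE*, and *FAMA*, which acts last in the lineage, was 0.32 higher. The 3 root markers summed to 224 and 150 FPKM, and the 2 green tissue markers, both genes of the small subunit of Rubisco, to 30298 and 21917 FPKM. The part of these tissues in the lower cell division values was not tested. Reference genes were uneven, with *UBC21* at −0.09 and *PP2AA3* at −0.03 but *ACT2* at 0.98, with 370 against 729 FPKM.

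The loci with the course over the 4 groups most like the median of the 10 genes were none of the listed cell cycle genes, since these were left out of the search. By Euclidean distance between centred log2(FPKM + 1) values over 4 groups, the nearest 5 of 14925 loci with a mean of 5 FPKM or more were *HVA22H* (0.0597), *EXPA8* (0.0748), *APX1* (0.0951), *ROC1* (0.0980) and AT1G09490 (0.102). *EXPA8*, an expansin, was read at 32.3 and 33.1 FPKM in 1-day-old and 51.1 and 29.9 FPKM in 7-day-old seedlings. *APX1*, the cytosolic ascorbate peroxidase, was read at 763 and 761 FPKM and then at 1226 and 699 FPKM. Each distance rests on 4 points, and a low distance says nothing of shared function.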

How the data were processed

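RNA of 12 whole-seedling samples (4 groups of 3 biological replicates) was sequenced as mRNA libraries. FPKM values come from the authors' run of Cufflinks and Cuffdiff, which pooled each group's replicates into 1 value per locus. The study's supplement names the unit of such values RPKM. Aligner, versions, annotation and genome build are not given in the sources used here. The deposited tables also hold a log2 ratio, a test statistic, p- and q-values and a significance flag, and these columns were not used.

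Changes were computed as log2 of (a + 1)/(b + 1), and 2-fold or more was counted as past the threshold, as a description. Table starts count from 0, so 1 was added. Of 33078 loci, 32374 have an identifier in TAIR10.1 (RefSeq) and 32048 lie at its position. Of the 99 further cell cycle genes and 23 tissue markers, 98 and 22 were placed. The members and lists were chosen with earlier results of these data known. All 10 genes are named. Of the other cell cycle genes, the 2 highest and 2 lowest changes between genotypes per group and age, among those with a mean of 1 FPKM or more, could be named, and the text names some of these. Markers and the 5 loci of most like course could be named too. Promoter words were counted in the 250 bases before each gene start.

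The alternatives were pseudocounts of 0.1 and 0, centring on the group medians, filters at means of 1 and 5 FPKM, thresholds of 1.5- and 3-fold, and the tables of single groups, whose values differ from the table of all groups by 0 at most. Python 3.11.15, pandas 2.3.3, numpy 2.4.6, scipy 1.17.1, matplotlib 3.10.9 and Biopython 1.88 were used.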

Additional observations from a re-analysis of the deposited data

Results flagged for a closer look

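Of the 10 genes, 4 stood above WT in 1-day-old *sig2-2* seedlings and below it in 7-day-old ones. The change at 7 days minus that at 1 day was −1.299 (log2) for *CYCB1;2*, −1.182 for *CYCA1;1*, −1.161 for *CDKB2;2* and −1.160 for *KNOLLE*. For *KNOLLE* the change at 1 day was 0.03, which is nearly none. The difference between the ages was not tested, since each group has 1 combined value. Of all loci, 4.57% had such a difference of −1 or lower, a call on its size and not on a turn of sign. The share of loci that turned from higher to lower was not counted. Of those with a mean of 1 FPKM or more, 47.8% were higher in *sig2-2* at 1 day and 49.6% were lower at 7 days.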

How the results depend on the processing

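No gene of the 10 changed its direction in any comparison under any alternative, in 295 values and counting any change of sign as a reversal. Most of these values could not have turned. The filters and the tables of single groups leave a gene's value as it was, and a pseudocount cannot turn the sign of a ratio between groups. Only the centring, and the pseudocount for the difference between the ages, could have turned a sign. With the pseudocount of 1, 8 genes were past 1.5-fold lower in *sig2-2* at 7 days, beside 6.34% of all loci. At 3-fold none was (0), beside 0.853%, and at 2-fold 5 were, beside 2.35%. With age in WT, 5 genes were past 1.5-fold higher, 0 past 3-fold and 1 past 1.5-fold lower, against 3 higher and 0 lower at 2-fold. Of all loci, 17.1% were past 1.5-fold lower with age in WT, and at least the 12% past 2-fold were past 1.5-fold higher. With age in *sig2-2*, 3 were past 1.5-fold lower and 0 past 3-fold, against 1 at 2-fold. There at least 9.58% of all loci were past 1.5-fold lower. From FPKM alone, *CYCB2;1* was 3.28-fold lower in *sig2-2* at 7 days. On that scale *KNOLLE* was 3.07-fold and *CDKB2;2* 2.10-fold higher with age in WT. The median difference of the genotype change between the ages was −1.04 with a pseudocount of 0.1 and −1.09 without one, against −0.78, because the pseudocount of 1 shrinks the changes of low genes. Centring each group on its median and filtering on low values left the counts of genes past 2-fold within 1.5 times. Such centring did not take out the median per-locus shifts with age (−0.17 for WT, −0.13 for the mutant). With it, the 10 genes' median age change went from 0.515 to 0.547 for WT and from −0.166 to −0.164 for the mutant. Counts with the per-locus shifts subtracted were not made. No paired analysis was possible because the 3 replicates of a group are combined in the values, and for the same reason no replicate could be left out. Depth is unknown, so values near 1 FPKM, such as that of *CYCB2;1*, have an error that cannot be given.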
